A study of Mus musculus with 9 samples.

Results

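HEB-alone sites are the DN3 HEB peaks that no other deposited list shares: 4652 of the 11619 HEB peaks called in mouse DN3 thymocyte precursors on chromosomes 1 to 19, X and Y overlapped no peak of the other 5 lists by 1 bp or more (95% Wilson interval of the share 39.2 to 40.9%). They were chosen by that lack of overlap, so it is what defines them and not a result. The 6 lists together held 79216 peaks. The other 6967 DN3 HEB peaks, called shared here, overlapped a peak of at least 1 other list. The DN3 cells were grown from Rag2-/- BALB/c fetal liver progenitors on OP9-DL1, a stromal line that presents a Notch ligand, and taken at day 7 of culture. The CD73- and CD73+ groups started as such DN3 cells, sorted as CD4- CD8- CD25+ CD44-. They received the KN6 gamma-delta T cell receptor from virus-producing GP+E cells with IL7, Flt3L and polybrene, spent 3 days on OP9-DL1, and were fixed and then sorted as CD24+ CD73- or CD24+ CD73+ cells. Per the labels, CD73+ cells were committed to the gamma-delta fate and CD73- cells could still take the alpha-beta fate. Without Rag2 none of the cells could rearrange T cell receptor genes of their own, and the labels give 1% formaldehyde for 10 min as the fixation. Each group had 1 HEB, 1 E2A and 1 input library, and each antibody was a rabbit serum raised to the last 12 residues of its target. Duplicates were joined into 1 file by the authors, so no value here has a replicate error and none has a test. Intervals cover counting error only, and read depth is unknown.

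HEB, encoded by Tcf12, and E2A, encoded by Tcf3, are E proteins, basic helix-loop-helix factors that bind as dimers to the E-box, CANNTG. In thymocytes they act as dimers with each other or with themselves, are required for early T cell development and for restraint at the DN3 stage, and are blocked by Id proteins, which lack a DNA-binding region. A site called for HEB and not for E2A is a statement about 2 peak lists: a peak under the threshold of a list is absent from it whether or not the factor was there.

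The sequence that could be read under these sites is at gene starts. Of 21263 promoter windows of protein-coding and T cell receptor constant genes, each running from 250 bases before to 50 after a start site, 207 were touched by a HEB-alone peak (0.974%) and 113 lay wholly inside one (0.531%). The 113 windows belong to 105 genes, and the table of windows is not complete. The following 8 were chosen after their values were seen to show the range of E-box content: the highest-scoring member over a start site (Sfr1), Ccnd3 and Jak3, also without an E-box, and 5 genes with 1 to 4 of them. The letters are RefSeq's GRCm38.p6, the build mm10 of the peak lists, and not reads from these BALB/c cells. They run 5′ to 3′ along the gene, and each E-box on either strand is in capitals.
Sfr1, chr19:47731506-47731805, plus strand: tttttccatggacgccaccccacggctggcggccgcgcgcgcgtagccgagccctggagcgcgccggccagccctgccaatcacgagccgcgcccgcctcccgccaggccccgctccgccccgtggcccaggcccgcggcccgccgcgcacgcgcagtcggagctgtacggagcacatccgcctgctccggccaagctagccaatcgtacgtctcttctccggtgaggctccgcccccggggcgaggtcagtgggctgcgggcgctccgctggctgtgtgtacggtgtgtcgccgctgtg
Ccnd3, chr17:47504801-47505100, plus strand: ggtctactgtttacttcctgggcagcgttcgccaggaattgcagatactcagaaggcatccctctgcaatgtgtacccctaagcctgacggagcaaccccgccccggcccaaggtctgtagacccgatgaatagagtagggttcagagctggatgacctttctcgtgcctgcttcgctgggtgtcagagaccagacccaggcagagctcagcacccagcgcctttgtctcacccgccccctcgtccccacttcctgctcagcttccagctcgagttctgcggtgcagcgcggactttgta
Jak3, chr8:71676133-71676432, plus strand: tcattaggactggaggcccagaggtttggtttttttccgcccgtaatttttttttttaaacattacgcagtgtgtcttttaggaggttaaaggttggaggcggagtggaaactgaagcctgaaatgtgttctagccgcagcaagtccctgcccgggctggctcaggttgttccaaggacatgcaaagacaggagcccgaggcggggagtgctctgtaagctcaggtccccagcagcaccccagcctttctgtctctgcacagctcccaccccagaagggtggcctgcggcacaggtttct
Dnmt3a, chr12:3891494-3891793, plus strand: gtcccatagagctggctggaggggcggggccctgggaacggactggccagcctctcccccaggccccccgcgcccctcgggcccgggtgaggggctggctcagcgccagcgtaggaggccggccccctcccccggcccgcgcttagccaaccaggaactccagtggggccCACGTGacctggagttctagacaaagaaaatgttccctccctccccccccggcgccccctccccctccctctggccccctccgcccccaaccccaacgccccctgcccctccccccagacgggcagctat
Vav1, chr17:57278850-57279149, plus strand: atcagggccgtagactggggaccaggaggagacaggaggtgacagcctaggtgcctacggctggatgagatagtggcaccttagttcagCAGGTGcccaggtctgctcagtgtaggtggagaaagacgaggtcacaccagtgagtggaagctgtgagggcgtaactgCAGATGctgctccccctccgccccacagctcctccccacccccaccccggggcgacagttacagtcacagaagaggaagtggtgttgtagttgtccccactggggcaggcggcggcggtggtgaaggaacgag
Xbp1, chr11:5520391-5520690, plus strand: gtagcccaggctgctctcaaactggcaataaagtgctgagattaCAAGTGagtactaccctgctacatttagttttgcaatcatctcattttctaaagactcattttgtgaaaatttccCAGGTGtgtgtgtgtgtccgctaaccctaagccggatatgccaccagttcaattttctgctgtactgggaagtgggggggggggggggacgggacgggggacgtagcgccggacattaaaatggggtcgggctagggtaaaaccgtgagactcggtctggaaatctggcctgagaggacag
Ubtd1, chr19:41981513-41981812, plus strand: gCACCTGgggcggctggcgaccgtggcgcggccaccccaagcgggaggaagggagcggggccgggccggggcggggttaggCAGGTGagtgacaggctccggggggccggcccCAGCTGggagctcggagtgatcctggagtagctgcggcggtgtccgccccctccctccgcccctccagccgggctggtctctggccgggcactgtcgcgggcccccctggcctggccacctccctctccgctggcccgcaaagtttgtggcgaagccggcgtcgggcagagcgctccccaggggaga
Hif1a, chr12:73907617-73907916, plus strand: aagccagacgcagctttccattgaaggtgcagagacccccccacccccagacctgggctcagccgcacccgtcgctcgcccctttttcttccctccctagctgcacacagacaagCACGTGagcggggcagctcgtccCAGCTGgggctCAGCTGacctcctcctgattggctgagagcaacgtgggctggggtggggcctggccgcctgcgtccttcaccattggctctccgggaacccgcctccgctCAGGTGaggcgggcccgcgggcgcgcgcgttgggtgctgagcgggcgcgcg
The capitals differ among members that look alike in the peak list. Vav1, which encodes an exchange factor downstream of the T cell receptor, and Jak3, which encodes the kinase of the common gamma chain receptors, had peaks of 87.6 and 87.1 over their start sites. The Vav1 window held CAGGTG and CAGATG, and the Jak3 window no E-box. The Sfr1 peak, at 217 the highest over any start site, and the Ccnd3 peak of 97.0 also covered windows with no E-box. Dnmt3a, which encodes a DNA methyltransferase, had a single CACGTG under a peak of 119, and Xbp1, which encodes a factor of the unfolded protein response, had CAAGTG and CAGGTG under a peak of 76.2. Ubtd1 had 3 E-boxes under a peak of 106, and Hif1a, which encodes a hypoxia-response factor, had 4 under a peak of 65.8. Of the 113 windows, 30 held no E-box, 39 held 1, 31 held 2, 10 held 3 and 3 held 4. No E-box in 300 bases says only that these letters are not in this window, since the peaks extend beyond it.

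An E-box of any kind was present in 73.5% of the 113 windows inside HEB-alone peaks (64.6 to 80.7%), in 83.9% of the 242 inside shared DN3 HEB peaks (78.7 to 88.0%) and in 69.0% of all promoter windows. The HEB-alone share thus lay between the shared sites and the background, and its interval included the background value. For CAGGTG, read on both strands and so the same as CACCTG, the shares were 30.1% in HEB-alone windows (22.4 to 39.1%), 44.6% in shared windows (38.5 to 50.9%) and 19.7% in all windows. For CAGCTG they were 26.5% (19.3 to 35.4%), 33.5% (27.8 to 39.6%) and 15.6%. For CAGGTG and CAGCTG alike, the HEB-alone interval lay above the value over all windows. These 6-letter words are E-boxes themselves and are counted in the first share too. Windows inside DN3 E2A-alone peaks, the 84 windows inside E2A peaks that no other list shares, held any E-box in 85.7% (76.7 to 91.6%), CAGGTG in 36.9% and CAGCTG in 32.1%. CATCTG was found in 11.5% of HEB-alone windows (6.85 to 18.7%), against 13.2% of shared windows and 14.6% of all windows.

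Of 4 other motifs, each also read on both strands, the intervals of 3 included the background value and that of GATA lay below it. The RUNX word AACCACA was in 6.19% of the HEB-alone windows (3.03 to 12.2%), 3.72% of shared windows and 4.71% of all windows. The ETS word ACAGGAA was in 7.08% (3.63 to 13.4%), against 8.68% and 7.94% of those sets, and the AP-1 word TGACTCA in 2.65% (0.907 to 7.52%), against 4.96% and 4.66%. The GATA word AGATAA was in 1.77% of HEB-alone windows (0.487 to 6.22%), 5.79% of shared windows and 9.65% of all windows. Base composition also differed between the sets: the median GC content was 65.7% in HEB-alone windows, 62.7% in shared windows and 56.3% in all windows. Its part in the motif shares was not tested.

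HEB-alone sites were concentrated at the low end of the list. Scores are the authors' own, -10 times the log10 of the p-value that MACS gave a peak against input, and start at 50. In the class from 50 to 60, 2494 of 3790 DN3 HEB peaks were HEB-alone (65.8%, 64.3 to 67.3%). It was 1508 of 3019 from 60 to 80 (48.2 to 51.7%). The share was 30.7% from 80 to 100 and 12.2% from 100 to 200, and at 200 and over it was 1.01% (15 of 1479, 0.616 to 1.67%). Seen from the other side, 53.6% of all HEB-alone sites scored under 60 and 269 of 4652 scored at least 100. The median score was 59.0 at HEB-alone sites and 94.9 at shared sites, and the highest was 367 against 3213. Score and overlap come from the same peak call, so these values are a description.

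**Figure D1:**
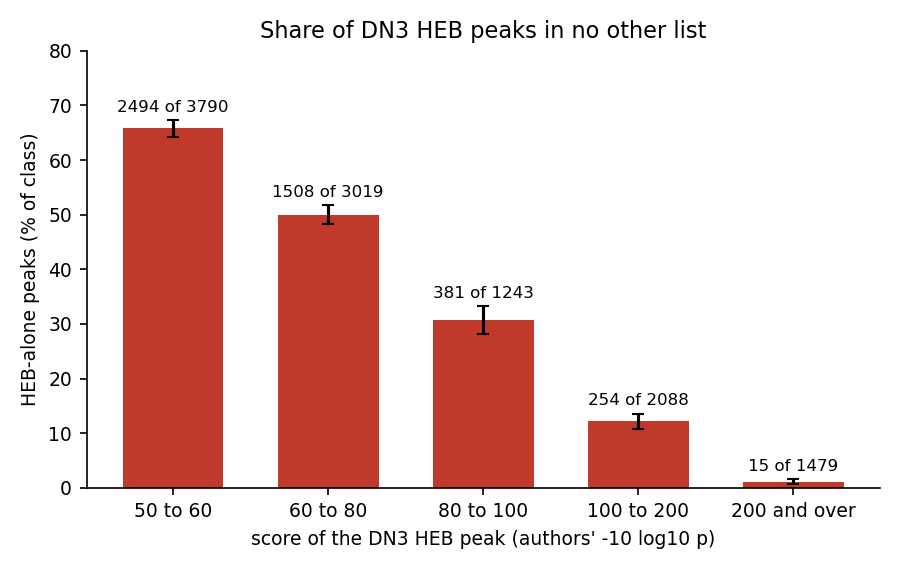
Share of DN3 HEB peaks that overlap no other list (vertical axis, % of the class) by score class (horizontal axis). Bars are the share, error bars the 95% Wilson interval for counting error, and the labels the counts; the share is 65.8% in the lowest class and 1.01% in the highest.

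The lack of overlap was not total isolation. The nearest peak of any other list was a median of 7728 bp away, within 500 bp for 10.7% of members and within 5 kb for 43.4% (42.0 to 44.8%), or for 9.82% when the other lists were held to a score of at least 100. It belonged to the CD73+ E2A list for 32.8% of members and to the DN3 E2A list for 32.6%, the lists of 23205 and 12357 peaks. Taken list by list, the median distance was 39006 bp to the nearest CD73+ E2A peak, 55824 bp to DN3 E2A, 68596 bp to CD73- E2A, 71236 bp to CD73+ HEB and 81036 bp to CD73- HEB. It was 102674 bp to the nearest shared DN3 HEB peak, and 15.2% of members had a DN3 E2A peak within 5 kb. The sets differ in size, with 12434 CD73- E2A, 10194 CD73+ HEB, 9407 CD73- HEB and 6967 shared DN3 HEB peaks. The part of set size in these distances was not tested. Over 50 kb from any shared HEB peak lay 67.5% of members scoring 50 to 60 (65.7 to 69.3%), 62.9% of those from 60 to 80, 52.2% from 80 to 100, 51.2% from 100 to 200 (45.1 to 57.3%) and 9 of 15 at 200 and over (35.7 to 80.2%). As for spacing among the HEB-alone sites themselves, 4180 had no other member within 10 kb. The rest formed 211 pairs, 14 groups of 3 and 2 groups of 4. No value for random placement was computed, so these are counts only. Members closest to the limit were near Elf4, where a peak of 50.3 on chromosome X abutted a DN3 E2A peak with a gap of 0 bp, and near AW209491 (61.2) and Txn2 (55.0), each 1 bp from a CD73+ E2A peak. Peaks that just missed were near Tenm3 (61.6), Zpld1 (53.8) and Usp38 (57.5), which overlapped another list by 1, 2 and 4 bp.

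The 5 lists weighed unequally in the rule. Shared DN3 HEB peaks overlapped the DN3 E2A list in 76.6% of cases, the CD73+ HEB list in 45.3%, the CD73- HEB list in 32.4%, the CD73- E2A list in 26.0% and the CD73+ E2A list in 23.6%, although the last was the longest. Peaks were also narrower in the CD73- and CD73+ lists, with median widths of 149 to 181 bp, than in the DN3 lists, at 721 bp for HEB and 617 bp for E2A. An exchange of the 2 CD73+ names would leave the members as they are, since the rule uses all 5 lists. With the DN3 E2A list alone as the comparison, 6280 peaks had no partner.

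HEB-alone sites were narrower than shared DN3 HEB sites. Their median width was 657 bp (quartiles 596 and 738 bp, range 233 to 2075 bp), against 827 bp at shared sites (659 and 1062 bp). Sites over 1000 bp made up 4.23% of HEB-alone sites (3.69 to 4.85%), against 30.5% of shared sites. Median widths were lower still in DN3 E2A-alone sites, at 544 bp, and in CD73+ HEB-alone sites, at 160 bp. From 50 to 60 the medians were 649 bp at HEB-alone sites and 660 bp at shared sites, from 60 to 80 they were 672 and 725 bp, and from 80 to 100 they were 764 and 817 bp. From 100 to 200 they were 808 and 934 bp, and at 200 and over 1017 and 1224 bp. HEB-alone sites had the lower median in each of the 5 classes. A wide peak overlaps more by its width, so width is no independent measure here.

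**Figure D2:**
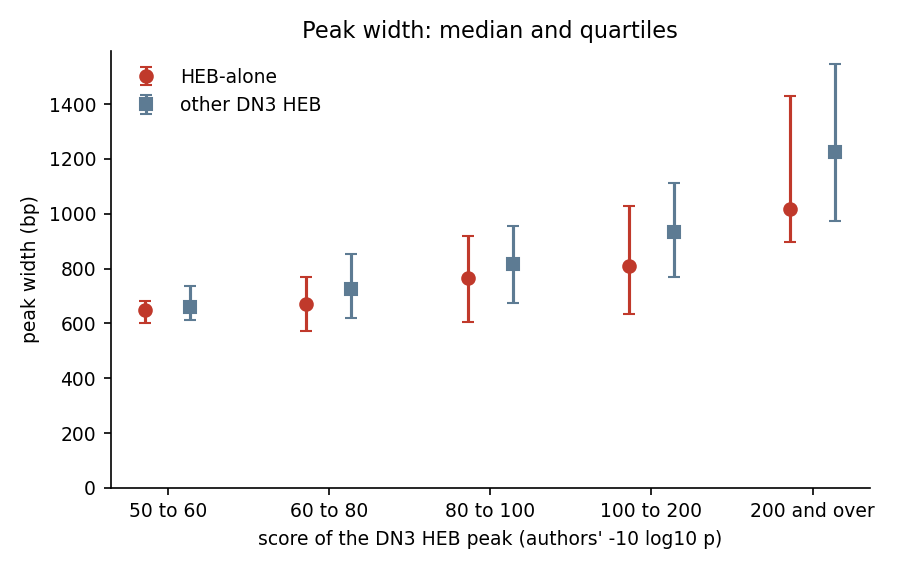
Peak width in bp (vertical axis, from 0) by score class (horizontal axis) for HEB-alone sites (red circles) and shared DN3 HEB sites (blue squares). Points are medians and bars the quartiles, which describe the spread over peaks; the HEB-alone median is 649 bp in the lowest class and 1017 bp in the highest.

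Near the threshold many sites shared both score and width. Under a score of 51 there were 448 HEB-alone sites at 81 distinct scores, and 325 of them lay at the 18 scores that at least 10 DN3 HEB peaks had in common. At those 18 scores the commonest width was 670 bp at 50.02 and 1 bp less at each next score, down to 653 bp at 50.97. Exactly those pairs of score and width were held by 284 of the 448 HEB-alone sites (63.4%, 58.8 to 67.7%), against 92 of the 192 shared sites under 51 (47.9%, 41.0 to 55.0%). Over the class from 50 to 60, 57.5% of HEB-alone sites had the same score and the same width as another DN3 HEB peak (55.5 to 59.4%), against 41.2% of shared sites (38.6 to 43.9%). At 100 to 200 these shares were 6.69% and 1.53%. The 28 HEB-alone sites with a score of 50.19 and a width of 667 bp lay on 15 chromosomes. The fall of width with score was followed only under a score of 51, and very narrow sites at higher scores were not set against it. Under 500 bp there were 374 HEB-alone sites (8.04%), against 5.74% of shared sites, and 26 of them had a score of 65.17 and widths of 406 to 450 bp. The 374 narrow sites lay inside a gene in 187 cases (45.0 to 55.0%), against 41.1% of HEB-alone sites of 500 bp and over. The narrow sites also scored higher, with a median of 65.2 against 58.3, and the part of score in this difference was not tested.

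Position relative to genes differed between HEB-alone and shared sites when all scores were pooled, and by less in each score class under 200. A gene here is the RefSeq span of 1 of 21907 protein-coding or T cell receptor constant genes, which includes exons, introns and UTRs. HEB-alone sites touched a span in 41.8% of cases (40.4 to 43.2%), against 49.6% of shared sites (48.4 to 50.8%), and were over 100 kb from any span in 19.9% (18.8 to 21.1%), against 14.4% (13.6 to 15.2%). In the class from 50 to 60, 37.2% of HEB-alone sites and 39.0% of shared sites were inside a gene. From 60 to 80 it was 46.6% of HEB-alone and 48.3% of shared sites, from 80 to 100 it was 45.4% and 50.2%, and from 100 to 200 it was 51.6% and 54.5%. In all 4 of these classes the HEB-alone value was lower and the intervals overlapped. Over 100 kb from a gene lay 23.9% of HEB-alone and 22.0% of shared sites from 50 to 60, 16.8% and 15.8% from 60 to 80, 14.2% and 14.6% from 80 to 100, and 9.06% and 10.5% from 100 to 200. At 200 and over, 10 of 15 HEB-alone sites were inside a gene (41.7 to 84.8%), against 53.9% of shared sites, and 0 of 15 were over 100 kb away (up to 20.4%), against 11.0%.

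**Figure D3:**
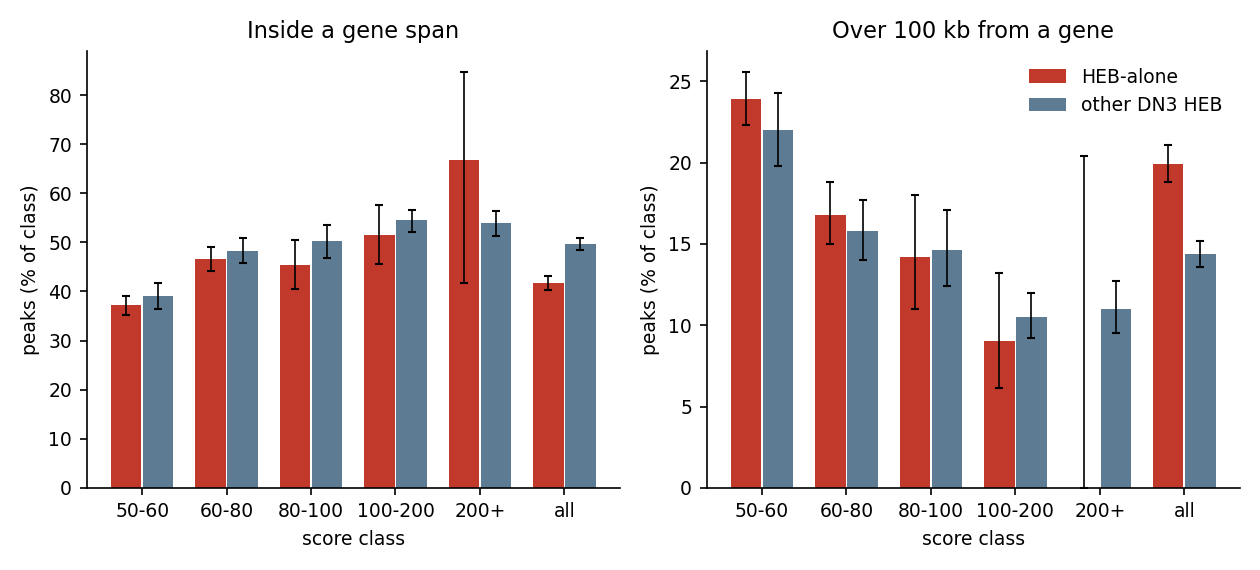
Share of peaks inside a gene span (left) and over 100 kb from any span (right), in % of each score class (horizontal axis) and over all classes, for HEB-alone sites (red) and shared DN3 HEB sites (blue). Error bars are 95% Wilson intervals for counting error; overall 41.8% of HEB-alone and 49.6% of shared sites are inside a gene, and within the classes from 50 to 200 the intervals overlap.

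Start sites were a minor location in both sets. A promoter window was touched by 3.94% of HEB-alone sites (3.41 to 4.55%), against 4.54% of shared sites (4.07 to 5.06%), and the median distance to a start site was 49244 bp, against 38144 bp. From 50 to 60 a window was touched by 2.65% of HEB-alone and 2.95% of shared sites, from 60 to 80 by 5.16% and 4.52%, from 80 to 100 by 6.56% and 4.55%, and from 100 to 200 by 5.26% and 4.64%. At 200 and over it was 1 of 15 HEB-alone sites (1.19 to 29.8%), against 5.82% of shared sites. The HEB-alone share was thus lower with scores pooled but higher in each class from 60 up, with overlapping intervals in each. Of the sites within 10 kb of a start, 48.9% lay upstream in either set. DN3 E2A-alone sites, chosen in the same way from the E2A list, were inside a gene in 50.6% (49.3 to 51.9%) and over 100 kb away in 13.2%, and CD73+ HEB-alone sites in 34.1% and 25.8%. If the factor names of the 2 CD73+ lists were exchanged, the last set would be E2A-alone. With scores pooled, 56.8% of the 359 DN3 HEB peaks on chromosome X were HEB-alone (51.7 to 61.8%), against 39.5% on autosomes (38.6 to 40.4%). From 50 to 60 the shares were 70.1% on X and 65.6% on autosomes, and from 60 to 80 they were 54.3% and 49.9%. From 80 to 100 they were 33.3% and 30.6%, and from 100 to 200 they were 30.8% (8 of 26) and 11.9%. At 200 and over they were 0 of 14 and 1.03%. The intervals overlapped in every class except that from 100 to 200. The lowest class held 184 of the 359 peaks on X, against 3578 of 11190 on autosomes. The part of score in the pooled difference was not tested. The pooled E2A-alone share was also higher on X, at 60.4% against 46.0% on autosomes.

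The strongest HEB-alone site lay at chr7:63985519-63987593, 46603 bp from Klf13, which encodes a zinc finger factor. It scored 367, was the widest member at 2075 bp, and had a shared HEB peak 544 bp away and a DN3 E2A peak 612 bp away. The next was at chr15:5330498-5331514, scored 305 and lay 86310 bp from Ptger4, which encodes a prostaglandin E2 receptor. Inside Apoc2, the gene of a lipoprotein lipase cofactor, a site of 295 at chr7:19671858-19673410 had no peak of any other list within 42367 bp. It is the only peak in the windows of its neighbours Apoc4 and Clptm1 as well. A site of 287 lay inside Jazf1, which encodes a zinc finger protein, at chr6:52841832-52842656, and a site of 260 inside Dennd2c at chr3:103134587-103136148. The 6th to 12th were nearest to Pkd1l3 (243), St8sia1 (221), Synpr (219), Pkig (218), Sfr1 (217), Acer2 (217) and Rcc2 (213). St8sia1 encodes the GD3 ganglioside synthase and Pkig an inhibitor of protein kinase A. Of these 12 sites, only those of Klf13 and Dennd2c had a peak of another list within 5 kb, for Dennd2c a CD73- HEB peak at 4529 bp. After Klf13 and Synpr, the widest members covered a start site of Sema4c, a semaphorin gene (1669 bp, score 123), and lay inside Slc6a6, a taurine transporter gene (1604 bp, 86.4).

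Counting a gene when a site lay in its span or within 10 kb, 2613 of 21907 genes had a HEB-alone site (11.9%) and 226 had one scoring at least 100 (1.03%). Most had 1 such site (2235 genes), 304 had 2 and 74 had 3 or more. For 682 genes (3.11% of all genes) the only peaks of the 6 lists were HEB-alone sites, 1 or more. Of the 2613 genes, 984 also had a shared DN3 HEB peak (37.7%) and 1285 a DN3 E2A peak (49.2%), against 3703 (16.9%) and 5738 (26.2%) of all genes. The other 1629 (62.3%) had HEB-alone sites as their only DN3 HEB peaks. Genes that share a window share a site, and long genes hold more sites: 6.20% of genes up to 10 kb long had one, 9.67% of those of 10 to 30 kb, 14.5% of those of 30 to 100 kb and 31.2% of those over 100 kb.

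Of 319 genes in 20 lists chosen for thymocyte biology and for other cell types, 80 had a HEB-alone site (25.1%, against 11.9% of all genes). A site scoring at least 100 was found for 11, and 20 had HEB-alone sites as their only peaks. Shared DN3 HEB peaks marked 131 of the 319. In the same length classes the listed genes were at 22.5% up to 10 kb, 15.1% at 10 to 30 kb, 27.9% at 30 to 100 kb and 18 of 36 over 100 kb. The highest list was that of T lineage transcription factors, with 11 of 20. E and Id protein genes followed with 5 of 10, and proximal T cell receptor signalling with 9 of 20. Their median spans were 90.9, 10.1 and 52.9 kb, against 19.0 kb over all lists, and the ranking is not adjusted for length. The T lineage list was also at 12 of 20 for shared DN3 HEB peaks and 17 of 20 for DN3 E2A peaks. Counts were 6 of 17 for pre-T cell receptor genes, 5 of 15 for quiescence, 7 of 22 for cytokine receptors and JAK-STAT, 5 of 18 for the cell cycle, 5 of 20 each for T cell receptor response and chromatin modifiers, 4 of 17 for the Notch pathway, 4 of 20 for gamma-delta genes and 3 of 16 for chemokine receptors. They were 1 of 16 for survival genes and 1 of 14 for widely expressed genes. Markers of B, myeloid, erythroid, natural killer, stromal and liver cells had 9 of 77 (11.7%), with none of 12 erythroid and none of 12 liver genes. Among the 9, Vpreb1 and Igll1 share 1 site, and Thy1 is counted under the stromal list. Peak lists carry no expression, so these counts do not check the cell type on the label.

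**Figure D4:**
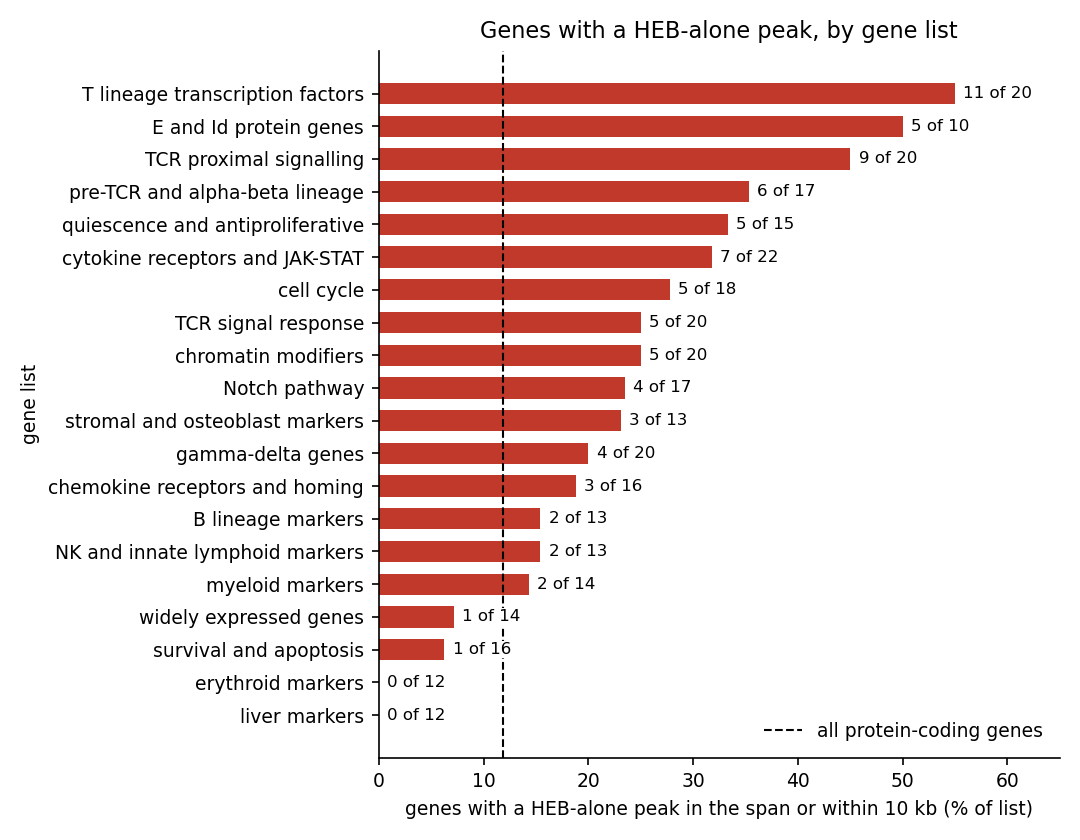
Genes with a HEB-alone site in the span or within 10 kb, in % of each of 20 gene lists (horizontal axis), with the counts beside the bars. The dashed line is the share over all 21907 genes, 11.9%; the list of T lineage transcription factors is at 11 of 20 and the erythroid and liver lists are at 0 of 12.

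Among T lineage factors the sites lay at Lef1, Gata3, Runx1, Runx2, Ets1, Ets2, Fli1, Ikzf1, Ikzf3, Myb and Zbtb7b. The highest were inside Fli1 (109), Ikzf3 (103) and Ets1 (101), genes of 2 ETS factors and of Aiolos. Each of these 3 also held shared HEB peaks, of up to 101 in Fli1, 1111 in Ikzf3 and 278 in Ets1. Of the 11 genes, 6 had no shared DN3 HEB peak, against 1629 of all 2613 genes with a HEB-alone site (62.3%). Gata3, the gene of a factor needed for T cell commitment, was among the 6, with a site of 56.4 at 1 end of its span. Tcf7 and Bcl11b, other commitment factors, had no HEB-alone site, while their shared HEB peaks reached 205 and 161.

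The genes of the E and Id proteins themselves were divided. Id1, which encodes an inhibitor of E proteins, had 2 HEB-alone sites, of 123 at 562 bp from its span and of 51.8, and no other peak in any list. Tcf12, which encodes HEB itself, had a site of 63.5 inside the gene and a shared HEB peak of 141. Tcf4, the gene of the related E2-2, had 2 sites, the higher at 82.4, and no other DN3 peak. Id2 and Lyl1 had 1 each. Id3 had no HEB-alone site and a shared HEB peak of 75.1, and Tcf3, the gene of E2A, had neither kind and DN3 E2A peaks of up to 137.

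In proximal T cell receptor signalling, the 9 genes with a site were Fyn, Zap70, Syk, Lcp2, Grap2, Vav1, Prkcq, Cd5 and Cd6. The Vav1 site over the start, of 87.6, was the only peak in its window. Grap2, the gene of the adaptor Gads, had a site of 130 at an end of its span and a shared HEB peak of 133. Syk, which encodes a kinase related to Zap70, had a sole site of 82.9. In the cytokine list Jak3 and Stat5b, which act in turn below the common gamma chain, had sole sites of 87.1 and 79.0, and Il21r had a site of 94.2 that lay 56 bp from a shared HEB peak. In the list of response genes Dusp2, a phosphatase gene, had a site of 89.1 and shared HEB peaks of up to 443. Spry2, a feedback inhibitor gene, had 2 sites, up to 74.2, as its only peaks. Cxcr3, a chemokine receptor gene on chromosome X, had a sole site of 198 at chrX:101728216-101728844, 2690 bp outside its span, the highest among the listed genes.

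Of 17 pre-T cell receptor genes, 6 had a HEB-alone site, and all 6 also had a shared HEB peak. In the whole list 13 of 17 genes had a shared HEB peak. Of all 2613 genes with a HEB-alone site, 984 had a shared HEB peak (37.7%). The site of 84.7 at chr9:44996214-44997406 lies between Cd3d and Cd3e, which encode CD3 chains, and counts for both. Cd8b1, a coreceptor gene, had a site of 85.5. Ptcra and Rag1 had none, with shared HEB peaks of up to 73.7 and 127. Among gamma-delta genes Nt5e, which encodes CD73, had a site of 66.4 inside the gene with no other DN3 peak, and Trdc, the constant gene of the delta chain, had a sole site of 59.3 at 1062 bp. Sox4 had a site of 56.5 and shared HEB peaks of up to 926, and Sox13 had no HEB-alone site. In the other lists Hes1, a Notch target, had a site of 93.9 with no other DN3 peak, Bid, which encodes a pro-apoptotic protein, had a sole site of 69.2, Foxo1 a site of 90.7 beside a shared peak of 81.0, and Arid1b, Dnmt3a and Ep300, genes of chromatin regulators, had sites of 187, 119 and 112.

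Ccnd3, which encodes cyclin D3 and is required for the expansion of thymocytes after the pre-T cell receptor signal, held 5 HEB-alone sites. Along the gene they began 533 bp before the start site and 4566, 18048, 28466 and 70420 bp after it, and scored 97.0, 50.2, 74.8, 188 and 62.2. Its 4 shared HEB peaks scored 259, 979, 3002 and 91.5, and the DN3 E2A peaks over the same 4 places scored 369, 1472, 2499 and 78.2. The HEB-alone site of 188 lay 1035 bp from the nearest shared HEB peak and that at the start site 5846 bp from the nearest peak of another list. Each of the 4 CD73- and CD73+ lists had a peak at the 2 strongest shared places.

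**Figure D5:**
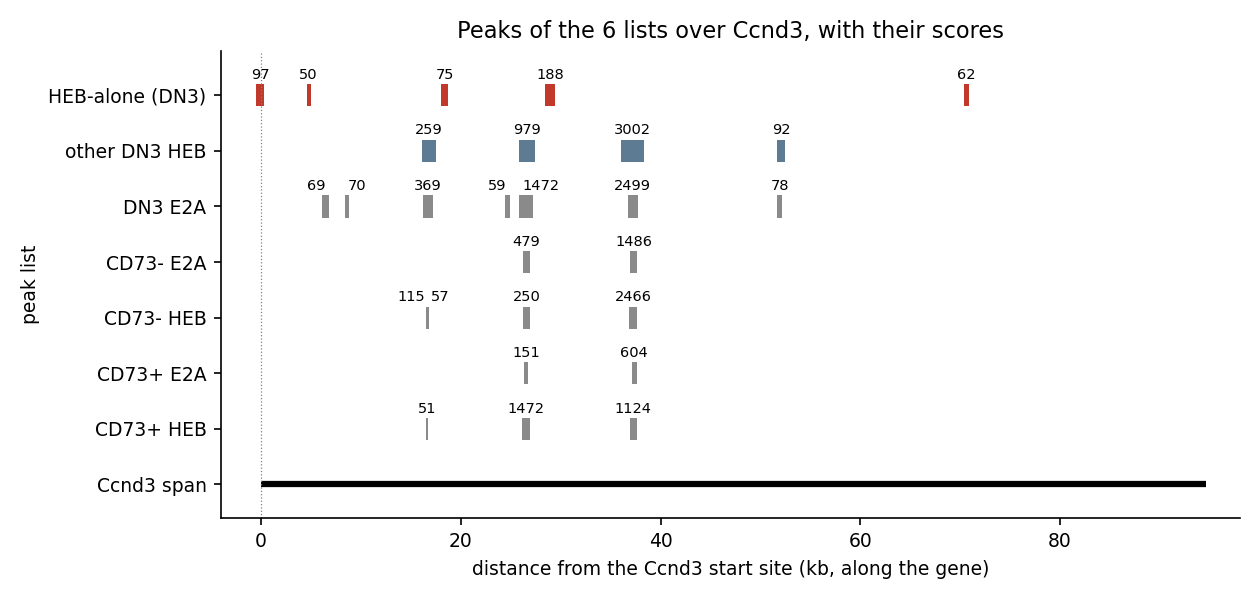
Peaks over Ccnd3 by distance from its start site in kb (horizontal axis), with 1 row for HEB-alone sites (red), 1 for the other DN3 HEB peaks (blue), 1 for each other list (grey) and the gene span (black). Numbers are the authors' scores, rounded; the 5 HEB-alone sites score 50.2 to 188 and the shared HEB peak at about 36041 bp scores 3002.

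At Notch3, a Notch receptor gene active in early thymocytes, a HEB-alone site bordered a strong shared peak. The HEB-alone site of 187 ran from 155 to 1560 bp after the start site and stopped 108 bp short of a shared HEB peak of 1591, which ran from 1669 to 3316 bp. The E2A peak of 2272 in DN3 cells began at 1797 bp, 236 bp past the HEB-alone site. Notch1 had a HEB-alone site of 82.8 lying 1587 bp outside its span and 6695 bp from a shared HEB peak.

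The genes with most HEB-alone sites were long or rich in shared peaks. Gse1, which encodes a part of a histone deacetylase complex, had 10 in a span of 353 kb, next to 22 shared HEB peaks and 27 DN3 E2A peaks. After it and Ccnd3 came Antxr1 and Sntg1 with 5 each, in spans of 202 and 942 kb, and Mvb12b and Ksr1 with 4 each. Sntg1 had only 1 shared HEB peak. Per length Ccnd3 was the densest of these 6, with its 5 sites in 94.6 kb. Of genes with HEB-alone sites as their only peaks, the 8 with the highest site were Apoc2 and its neighbours Clptm1, Apoc4 and Gm44805 (295), Pkd1l3 and its neighbour Ist1 (243), Sfr1 (217) and Tmem178 (204). The choice of these 8 genes rests on 4 sites, and Pkd1l3 had 2 HEB-alone sites in all.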

How the data were processed

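HEB and E2A binding in DN3, CD73- and CD73+ mouse cells was measured by chromatin immunoprecipitation and sequencing. Bowtie, HOMER and MACS 1.4.2 with the genome build mm10 are named in the submitters' processing notes. The 6 deposited files are peak lists of each antibody against its input, called by the authors on joined duplicates. The deposited score, -10 times the log10 of the p-value given by MACS, was used unchanged to describe and filter peaks within a list. Read depth is not in the lists.

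Peaks on 21 chromosomes were intersected at 1 bp or more. Genes were 21907 spans and promoter windows 21263 sequences of RefSeq GRCm38.p6, with no windows on chromosome 18 (start-site shares leave out its peaks). No genome was used, so the planned motif search within peaks was replaced by those windows. The members, the 20 gene lists (319 symbols, all matched) and the rule for named genes were chosen with earlier results of these data known. That rule takes the 12 highest and 4 widest sites, the 3 closest to another list, up to 3 genes a list and the 6 genes with most sites. It also takes the 8 genes with the highest site among those with HEB-alone sites only, and a set of regulators whatever their values. With 1 pooled list a group, no test against replicate error was possible. Wilson 95% intervals cover counting error only. Overlap code was tested on simulated data. Alternatives are given in the closing section. The software was scipy 1.17.1, numpy 2.4.6, matplotlib 3.10.9 and pandas 2.3.3 under Python 3.11.15.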

Additional observations from a re-analysis of the deposited data

Results flagged for a closer look

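Outside the 21 chromosomes of the report, the DN3 HEB list held 44 peaks on unplaced sequences, and 6 of them overlapped no peak of another list, with a highest score of 128. Input signal on these sequences was not used here, and the 6 peaks have no gene assigned.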

How the results depend on the processing

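No paired analysis was possible because each group has 1 pooled list. The number of HEB-alone sites, 4652, was 6718 with a reciprocal overlap of 50%, 4156 with a gap under 500 bp counted as shared, 6280 against the DN3 E2A list only, 5100 without the CD73+ E2A list and 4658 on all sequences. Without peaks under 500 bp, an alternative chosen after seeing the data, it was 4278. It moved beyond 1.5 times with score: 269 sites at a DN3 HEB score of at least 100, and 7216 when the other lists were held to at least 100. The median width of 657 bp was 818 bp at a score of at least 100, 666 bp with a reciprocal overlap of 50%, 655 bp with the 500 bp gap and 657 bp without peaks over 3000 bp. The share inside a gene, 41.8%, was 52.4% at a score of at least 100, 51.6% with all annotated genes, 40.1% by the midpoint and 43.1% with the 500 bp gap. Genes with a HEB-alone site numbered 2613, against 2164 within 5 kb, 3561 within 20 kb, 1687 in the span alone and 226 at a score of at least 100. Listed genes with a site numbered 80, against 72, 98, 50 and 11 under these settings, or 25.1%, 22.6%, 30.7%, 15.7% and 3.45% of the listed genes beside 11.9%, 9.88%, 16.3%, 7.70% and 1.03% of all genes. The share within 5 kb of another list's peak, 43.4%, was 9.82% when the other lists were held to at least 100. Of 18 gene lists with a site, 18 stayed within 1.5 times at 5 kb, 15 at 20 kb, 6 in the span alone and 0 at a score of at least 100. Beyond what each setting removes or adds, the cause was not tested. Motif searches within whole peaks and within 100 bp were not run.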

Other observations

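In the first 8 Mb of chromosome 14, 71 of the 81 genes have a Gm symbol, a name given to predicted genes. There, 19 of 27 DN3 HEB peaks were HEB-alone, with scores of up to 162. On the whole of chromosome 14 it was 208 of 515, and on all 21 chromosomes 4652 of 11619. The part of score in this difference was not tested, and sequence identity among these genes was not measured here.

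Among microRNA genes, HEB-alone sites overlapped the hairpin genes Mir5618 (score 61.3) and Mir7091 (on chromosome X, at the threshold). Mir142b, at the locus of a microRNA of blood cells, lay 834 bp from a site of 75.1. Mir7671 and Mir491 each lay 966 bp from a site, of 67.0 and 78.4. No share over all microRNA genes is given, so these are examples only. In promoter windows touched, rather than wholly covered, by a HEB-alone peak, an E-box was present in 75.8% of 207 (69.6 to 81.2%). It was present in 80.4% of 352 touched by a shared DN3 HEB peak (75.9 to 84.2%). Over all promoter windows the share was 69.0%, just below the HEB-alone interval.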
